A study of Homo sapiens with 3 samples.

Results

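The serpins are a family of proteins that share 1 fold, most of which inhibit serine proteases and some of which carry hormones, chaperone other proteins or have no known protease target. Their genes were taken by name, from the symbol SERPIN followed by a clade letter from A to I and a number, and the rule used no measured value. Of the 43316 genes on the array, 34 serpin genes are described. Of the 34, 16 stood well above background in 1 or more lines, beside 22418 of all genes, and 13 were so on all 3 arrays, beside 18591 of all genes.

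The arrays measured RNA of 3 cultured human lines, with 1 array per line and all 3 on the same slide. H1975 is an osimertinib-sensitive non-small cell lung cancer line that depends on mutated EGFR. OR1 and OR2 are osimertinib-resistant lines that were derived from it independently, by raising the dose of the drug in steps to 2 μmol/L over 4 months, and the study's methods call them clones. No other agent or allele separates the lines in the labels. Of 3 markers of lung adenocarcinoma, NKX2-1 and NAPSA were above background in every line and SFTPB in none. NKX2-1 was not level across the lines, at an intensity of 832 in H1975 against 184 in OR1 and 1167 in OR2. Its scaled ratios over H1975 were 0.252 in OR1 and 1.36 in OR2. NAPSA was dim throughout, at 37.2, 25.1 and 59.8 in the same order. Osimertinib inhibits mutated EGFR, and the arrays compare resistant cells with the parent they came from. Since each line had 1 array, each comparison is a ratio of 1 array to 1 array with no replicate check, no test was made on it, and the number of arrays limits the precision. Both resistant lines were set against the same H1975 array.

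An inhibitory serpin offers a protease a bait loop, is cleaved, and then traps the protease in a complex that does not come apart, so that each molecule acts once. Clade A and the clades named C to G are mostly secreted and act in blood, in inflammation and in the tissue around cells. Clade B serpins mostly stay inside the cell, where they protect it against its own or incoming proteases, and clade H holds a chaperone of collagen in the endoplasmic reticulum. In epithelial tumours the family is known, among others, for SERPINB5, called maspin and described as a suppressor of invasion.

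A gene was called higher at a ratio of 2 or more and lower at 0.5 or less, after each array was scaled on its 75th percentile. Of the 16 serpins above background, 5 were lower in both resistant lines than in H1975, namely SERPINA1, SERPINA3, SERPINA5, SERPINB4 and SERPINB5. That is 31.2% of them, beside 6.32% of all genes. Another 3 were higher in both, namely SERPINB9, SERPINF1 and SERPINH1, or 18.8% of them beside 5.09% of all genes. SERPINB3 was lower in OR1 alone and SERPINA6 in OR2 alone, and the remaining 6 did not pass the ratio in either line. In OR1, 6 serpins were lower and 3 higher, where 9.58% and 9.17% of all genes were. In OR2, 6 were lower and 3 higher, where 8.7% and 7.72% of all genes were. The median log2 ratio of the 13 serpins above background on all 3 arrays was -0.31 in OR1 and -0.62 in OR2, beside 0.03 and -0.05 over all genes.

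**Figure D1:**
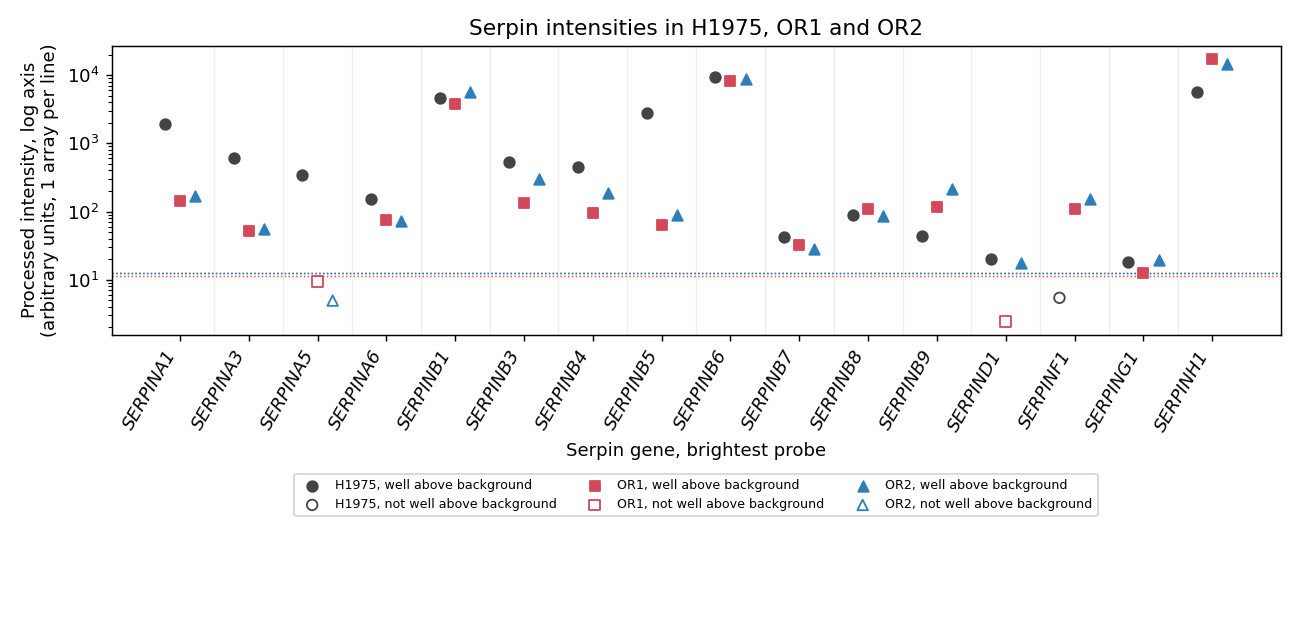
Processed intensity (log axis, arbitrary units) of the brightest probe of each of the 16 serpin genes above background, with 1 point per line, open where the probe was not well above background, and dotted lines at the lowest intensity well above background on each array. With these probes and scaling on the 75th percentile, SERPINA1, SERPINA3, SERPINA5 and SERPINB5 fell in both resistant lines by more than a factor of 10, which of the 4 SERPINB5 alone kept under every alternative tried, and SERPINF1 was above background in OR1 and OR2 but not in H1975.

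The plot of intensities shows each line's own value. Levels are compared within a gene only, since the brightness of different probes has no common scale. The intensities are as the scanner software gave them, and the ratios were taken after scaling, with a 75th percentile of 157 in H1975 against 138 in OR1 and 162 in OR2. Probes well above background began at an intensity of 12.6, 11.4 and 12.6, and 45.6% to 45.9% of probes passed on each array. The software's own error estimate gave a median SD of 0.21 for a log2 ratio in either line. It covers the measurement of 1 hybridized sample and not the spread between cultures.

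SERPINA1, SERPINA3 and SERPINA5 are secreted inhibitors encoded in 1 cluster on chromosome 14, and all 3 fell in both lines. SERPINA1 encodes alpha-1-antitrypsin, the main inhibitor of neutrophil elastase. Its intensity was 1898 in H1975 against 142 in OR1 and 167 in OR2. The 2 resistant lines were alike and far below H1975, with ratios of 0.0855 and 0.0856, or 11.7 times lower in each. A second SERPINA1 probe was not well above background in any line, and the median over both probes gave ratios of 0.302 and 0.286. SERPINA3, or alpha-1-antichymotrypsin, inhibits cathepsin G and chymase. It measured 608 in H1975 against 52.2 in OR1 and 55.5 in OR2, for ratios of 0.0980 and 0.0889. Its 3 probes all passed 0.5 in both lines, with ratios of 0.270 and 0.323 for another, and of at most 0.0507 and at most 0.0479 for the third.

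SERPINA5, the protein C inhibitor, measured 345 in H1975 and was not well above background in either resistant line, at 9.44 in OR1 and 4.95 in OR2. Set against the lowest intensity that counts as above background, its ratio had an upper bound of 0.0377 in OR1 and of 0.0356 in OR2. With normexp background correction, another way to take off the local background, these bounds were 0.177 and 0.160, and the ratios of SERPINA3 were 0.186 and 0.168. SERPINA6, the corticosteroid-binding globulin, carries a hormone and inhibits no protease. Its intensity was 151 in H1975 against 74.4 in OR1 and 71.7 in OR2. It was lower than H1975 in both lines, with ratios of 0.563 and 0.463, and passed 0.5 in OR2 only. Its ratio of OR2 over OR1 was 0.822, short of a call between those lines.

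The probes that measured SERPINA3 and SERPINA5 are shown by their first 30 bases, to make plain which transcript stretch each value stands for. Positions are on hg19 and are those of the whole 60-base probe, at chr14:95090330-95090389, plus strand for SERPINA3 and chr14:95058646-95058705, plus strand for SERPINA5.
SERPINA3: catggactcttcagtctggagggtcctggg
SERPINA5: gtatgctggtagctagtgatttacacaggt

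Of 10 genes of the plasminogen system, 9 were above background, 3 were lower in both lines and none was higher in both, beside 6.32% and 5.09% of all genes. Those 3 were PLAU, VLDLR and PLGRKT. PLAU encodes urokinase, a protease that SERPINA5 can also inhibit, and measured 45562 in H1975 against 9338 in OR1 and 16219 in OR2. Its ratios were 0.234 and 0.346, so that it was below H1975 in both lines. VLDLR, an endocytic receptor, measured 326, 28.7 and 37.9 in the order of the lines and was 9.98 and 8.84 times lower. PLGRKT, a plasminogen receptor of the cell surface, had ratios of 0.377 and 0.472. LRP1, named after its values were seen, went the other way and was called higher in OR2 only. It measured 73.0 in H1975 against 123 in OR1 and 151 in OR2, for ratios of 1.92 and 2.01. The median log2 ratio of the 9 was -0.56 in OR1 and -0.42 in OR2.

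**Figure D2:**
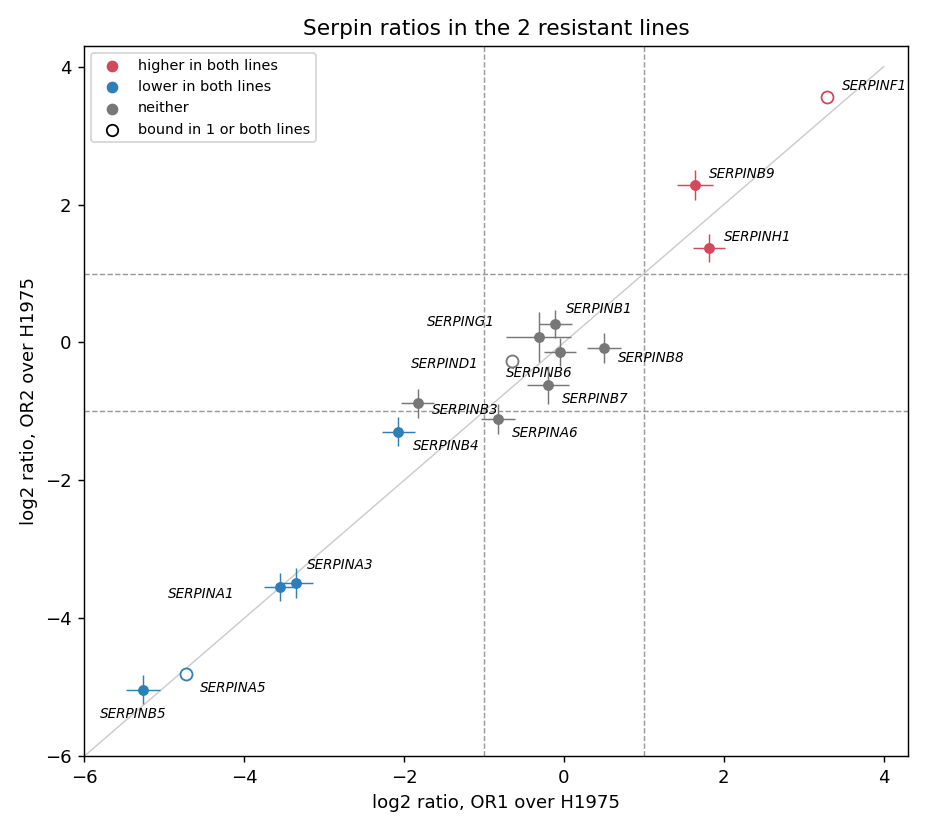
log2 ratio over H1975 of the 16 serpins above background, OR1 on the horizontal and OR2 on the vertical axis, with dashed lines at ratios of 2 and 0.5, bars of 1 technical SD from the scanner software (none where a value is a bound), and the diagonal where the lines are equal. The 5 genes lower in both lines lie at the lower left, and SERPINB9, SERPINH1 and SERPINF1 at the upper right.

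Among the intracellular clade B serpins, SERPINB5 had the lowest ratios. It encodes maspin, which inhibits no protease and is typical of epithelial cells. The intensity was 2816 in H1975 against 64.3 in OR1 and 88.4 in OR2. Both resistant lines kept a signal above background, yet the ratios were 0.0260 and 0.0306, or 38.4 and 32.7 times lower. With normexp background correction they were 0.0458 and 0.0478. The log2 ratios were -5.26 and -5.03, each with a technical SD of 0.21. Most of the epithelial markers were lower in the same lines. Of 6, all above background, 4 were lower in both, KRT7, KRT19, EPCAM and CDH1, beside 6.32% of all genes. CDH1 had ratios of 0.0205 and 0.0800. KRT8 and KRT18 were not called in either line, with ratios of 1.12 and 0.964 for KRT8 and of 0.884 and 0.806 for KRT18. In a whole culture, fewer cells that make an RNA and less of it per cell cannot be told apart. The part of the epithelial markers in the SERPINB5 result was not tested.

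SERPINB3 and SERPINB4 are neighbouring genes that encode the squamous cell carcinoma antigens. SERPINB3 inhibits cysteine proteases such as cathepsin L, and SERPINB4 inhibits cathepsin G and chymase. SERPINB3 measured 537 in H1975 against 133 in OR1 and 299 in OR2, and SERPINB4 measured 452, 94.3 and 190 in the same order. Both genes were lowest in OR1 and between the other lines in OR2. The ratios of SERPINB3 were 0.282 and 0.541 and those of SERPINB4 were 0.238 and 0.408, so that SERPINB4 passed 0.5 in both lines and SERPINB3 in OR1 only. The ratio of OR2 over OR1 was 1.92 for SERPINB3 and 1.72 for SERPINB4, both short of 2. The array's annotation lists a SERPINB4 transcript as a target of the SERPINB3 probe, so their values cannot be taken as fully separate. Of 4 markers of squamous cells, KRT5, KRT6A and TP63 were not well above background in any line, and KRT14 was higher in both resistant lines, with ratios of 18.2 and 10.3. The part of KRT14 in the results for SERPINB3 and SERPINB4 was not tested. The probes lie at chr18:61322767-61322826, minus strand for SERPINB3 and chr18:61304925-61304984, minus strand for SERPINB4, and their first 30 bases are these.
SERPINB3: ctggcaacaacagattctcttggctcatat
SERPINB4: tcctcttctatggcagattctcatccccat

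The stretches ahead of the 2 genes are near copies of each other. RefSeq's promoter table (GRCh38.p14) gives the 250 bases before the start of SERPINB3 at chr18:63661894-63662143, minus strand, and of SERPINB4 at chr18:63644257-63644506, minus strand. They are shown for their likeness, and whether it has a part in the measured values was not tested. They were identical at 247 of 250 bases, or 98.8%, and the capitals mark the 3 that differ.
SERPINB3: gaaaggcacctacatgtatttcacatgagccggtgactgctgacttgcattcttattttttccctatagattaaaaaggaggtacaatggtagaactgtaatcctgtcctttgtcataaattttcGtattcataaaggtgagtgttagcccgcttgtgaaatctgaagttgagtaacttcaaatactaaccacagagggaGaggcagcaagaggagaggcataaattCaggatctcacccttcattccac
SERPINB4: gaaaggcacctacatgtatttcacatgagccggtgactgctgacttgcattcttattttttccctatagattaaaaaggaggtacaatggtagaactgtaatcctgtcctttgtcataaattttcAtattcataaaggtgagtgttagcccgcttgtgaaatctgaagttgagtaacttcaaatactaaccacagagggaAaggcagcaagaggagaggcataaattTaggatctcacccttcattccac

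SERPINB9 rose. It encodes an inhibitor of granzyme B, the protease that killer lymphocytes deliver into target cells, and is the member of the family that cells use against their own granzyme or that of an attacker. Its intensity was 43.4 in H1975 against 118 in OR1 and 217 in OR2. Both resistant lines lay above H1975, at ratios of 3.11 and 4.87, and OR2 was above OR1 by a ratio of 1.56 that did not reach 2. With normexp background correction the ratios were 1.99 and 2.66, and the call in OR1 was lost. GZMB itself, its target, which was named after its values were seen, was close to the limit of detection. It measured 20.7 in H1975 against 17.2 in OR1 and 22.7 in OR2, where probes well above background began at 12.6, 11.4 and 12.6. Its ratios were 0.947 and 1.06, and they are imprecise at this signal. Of the leukocyte markers, CD3E was not well above background in any line and PTPRC measured 21.0, 20.7 and 20.5.

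The other clade B serpins above background did not pass the ratio in either line. SERPINB1, the inhibitor of leukocyte elastase, measured 4625 in H1975 against 3765 in OR1 and 5714 in OR2, for ratios of 0.928 and 1.20. SERPINB6, an inhibitor of cathepsin G, measured 9535, 8090 and 8903 in the same order, for ratios of 0.968 and 0.909. The 3 lines lay close together for both genes. SERPINB7, known as megsin, measured 42.0, 32.0 and 28.1, for ratios of 0.870 and 0.651. SERPINB8, an inhibitor of furin, measured 87.5, 108 and 85.1, for ratios of 1.41 and 0.947. A second SERPINB6 probe gave ratios of 0.788 and 0.951, also short of the call.

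SERPINH1 encodes HSP47, the chaperone that binds procollagen in the endoplasmic reticulum and is itself induced by heat shock. Its intensity was 5568 in H1975 against 17186 in OR1 and 14784 in OR2. Both resistant lines were above H1975, with ratios of 3.52 and 2.58 and log2 ratios of 1.82 and 1.37, each with a technical SD of 0.20. Its probe lies at chr11:75283743-75283802, plus strand.
SERPINH1: gggaagggggaacatgagcctttgttgcta

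Of 17 genes that fold, modify or export collagen alongside SERPINH1, 16 were above background, none was higher in both lines, and 1 was lower in both, beside 5.09% and 6.32% of all genes. The share is near that of all genes. The gene that was lower was P4HA2, a subunit of prolyl 4-hydroxylase, with ratios of 0.361 and 0.305. Named after their values were seen, P3H1, a prolyl 3-hydroxylase, had ratios of 2.58 and 1.99, and COLGALT1, which adds galactose to collagen, had ratios of 2.34 and 1.95, so that both were called higher in OR1 only. The median log2 ratio of the 16 was 0.37 in OR1 and 0.13 in OR2. The collagen genes on the fibroblast marker list were not called higher in either line. COL1A2 was lower in both lines, with ratios of 0.162 and at most 0.0615. COL1A1 was lower in OR2 only, with ratios of 1.45 and 0.183. COL1A1 measured 461 in H1975 against 585 in OR1 and 86.8 in OR2, and COL1A2 measured 200 in H1975 against 28.3 in OR1 and 5.65 in OR2, where it was not well above background. Another marker on that list, LUM, which encodes the matrix proteoglycan lumican and was named after its values were seen, was dim in H1975 and OR2 but measured 59.8 in OR1, at least 5.43-fold above H1975. COL3A1, DCN, PDGFRA and THY1, the other fibroblast markers, were not well above background in any line.

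The promoter of SERPINH1 holds the letters of a heat shock element, the kind of site that heat shock factors bind. The letters searched were GAANNTTCNNGAA on both strands, within 250 bases before to 50 after each start in RefSeq's table. They occur in 0.490% of 35116 promoters, and in 1 of the 41 serpin promoters, an entry of SERPINH1. The match is on the strand opposite to the gene and begins 76 bases before its start. It is shown in capitals in the 250 bases before that start, at chr11:75562003-75562252, plus strand, on GRCh38.p14.
SERPINH1: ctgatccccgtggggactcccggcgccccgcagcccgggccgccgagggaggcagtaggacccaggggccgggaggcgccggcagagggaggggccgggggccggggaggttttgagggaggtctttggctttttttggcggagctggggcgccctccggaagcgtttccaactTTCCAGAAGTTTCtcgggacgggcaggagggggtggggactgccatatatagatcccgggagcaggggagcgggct

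Other patterns were found in several members. Of the 34 genes, 27 had an entry in the table, 7 of the 8 called in both lines among them. The AP-1 letters TGANTCA were in 9 of the 41 promoters, from 8 genes, beside 7.71% of all promoters. Of the genes called in both lines they were in SERPINB5, 146 bases before its start. The STAT letters TTCNNNGAA were in 9 of the 41, beside 7.66% of all, SERPINA5 among them. The letters CACCTG, an E-box bound by ZEB and SNAI repressors, were in 11 of the 41, beside 20.6% of all, those of SERPINA1, SERPINB5 and SERPINH1 among them. In SERPINH1 the E-box lay in another entry than the one shown above with the heat shock element. In SERPINA1 too it was not in every entry. The AP-1 and E-box matches of SERPINB5 did not overlap, and a match describes letters and not a bound site.

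SERPINF1 was detected in the resistant lines only. It encodes pigment epithelium-derived factor, a secreted member without inhibitory activity that is known to restrain the growth of blood vessels. It was dim in H1975, at an intensity of 5.43 that did not count as above background, and measured 108 in OR1 and 152 in OR2. Against the lowest intensity above background in H1975, OR1 was at least 9.80-fold higher and OR2 at least 11.8-fold higher. With normexp background correction the bounds shrank to at least 2.38 and at least 2.65, still past 2. The probe lies at chr17:1680668-1680727, plus strand, and begins as follows.
SERPINF1: cttcgtactgagggacacagacacaggggc

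SERPING1 and SERPIND1 control proteases of blood and were close to the limit of detection. SERPING1, the C1 inhibitor, measured 18.1 in H1975 against 12.7 in OR1 and 19.6 in OR2, for ratios of 0.804 and 1.06. Its log2 ratio in OR1 was -0.31 with a technical SD of 0.41, so a difference was not detectable at this signal. Of its 4 probes, 2 were not well above background in any line and another was so in H1975 only. SERPIND1, heparin cofactor II, an inhibitor of thrombin, measured 20.4 in H1975 and 17.5 in OR2 and was not well above background in OR1, at 2.43. Its ratio was 0.831 in OR2, short of a call. In OR1 the ratio was at most 0.636, a bound that does not settle whether it passed 0.5. It was called lower in OR1 with spike-in scaling and without a background filter.

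Of 19 genes of coagulation and complement, 12 were above background. These are the systems in which these inhibitors and SERPINA5 act, and the list holds receptors and cofactors as well as proteases. In both lines 3 were higher, THBD, C1R and C1S, and 2 were lower, F12 and PROC, beside 5.09% and 6.32% of all genes. C1R and C1S encode the complement proteases that SERPING1 inactivates, and their ratios were 2.04 and 2.69 for C1R and 2.53 and 2.49 for C1S. THBD, or thrombomodulin, the receptor that turns thrombin towards activating protein C, had ratios of 3.31 and 2.47. PROC, which encodes protein C, a target of SERPINA5, measured 140 in H1975 against 8.08 in OR1 and 25.3 in OR2. It was dim in OR1, where the ratio was at most 0.0932, and the ratio in OR2 was 0.176. F12, coagulation factor XII, had ratios of 0.211 and 0.298.

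Of 25 other proteases that serpins are known to inhibit, or their close relatives, 19 were above background, 5 were lower in both lines and 1 was higher, beside 6.32% and 5.09% of all genes. The lowest was PRSS8, or prostasin, an epithelial membrane protease, with ratios of 0.0352 and 0.0241. CTSH, cathepsin H, had ratios of 0.0395 and 0.143. KLK5, a kallikrein of skin and secretions, was the gene that rose, with 110 in H1975 against 1165 in OR1 and 390 in OR2, for ratios of 12.1 and 3.46. KLK8, another kallikrein, had ratios of 0.353 and 0.445, and CTSV, cathepsin V, had ratios of 0.375 and 0.494. CTSL, cathepsin L, the last of the 5 and named after its values were seen, had ratios of 0.302 and 0.498. So SERPINB3 and cathepsin L, an inhibitor and its target, were both below H1975 in OR1.

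Protease inhibitors outside the family moved in both directions. Of 28 listed, 27 were on the array and 17 above background, 3 were lower in both lines and none was higher in both, beside 6.32% and 5.09% of all genes. In OR1 the list had 5 higher and 4 lower, where 9.17% and 9.58% of all genes were. In OR2 it had 1 higher and 4 lower, where 7.72% and 8.7% of all genes were. SPINT1 and SPINT2 encode Kunitz inhibitors of epithelial membrane proteases such as prostasin. SPINT1 measured 1636 in H1975 against 26.0 in OR1 and 46.9 in OR2, with ratios of 0.0181 and 0.0279. SPINT2 had ratios of 0.0910 and 0.185. CST6, or cystatin M, an inhibitor of cathepsins L and V, had ratios of 0.449 and 0.267. The 5 higher in OR1, named after their values were seen, were A2M, SPINK4, SLPI, SPINK1 and RECK. The 1 higher in OR2, named in the same way, was TFPI2, with ratios of 1.38 and 4.44. It measured 59.3 in H1975 against 71.5 in OR1 and 270 in OR2. A2M, or alpha-2-macroglobulin, a broad protease trap, was dim in H1975 and OR2 and measured 320 in OR1, at least 29.1-fold above H1975. SLPI, an inhibitor of leukocyte elastase, had ratios of 3.24 and 1.83. The median log2 ratio of the 13 above background on all 3 arrays was 0.29 in OR1 and 0.11 in OR2. AGT, or angiotensinogen, which has the serpin fold under another name, measured 334, 193 and 440 and did not pass the ratio in either line.

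**Figure D3:**
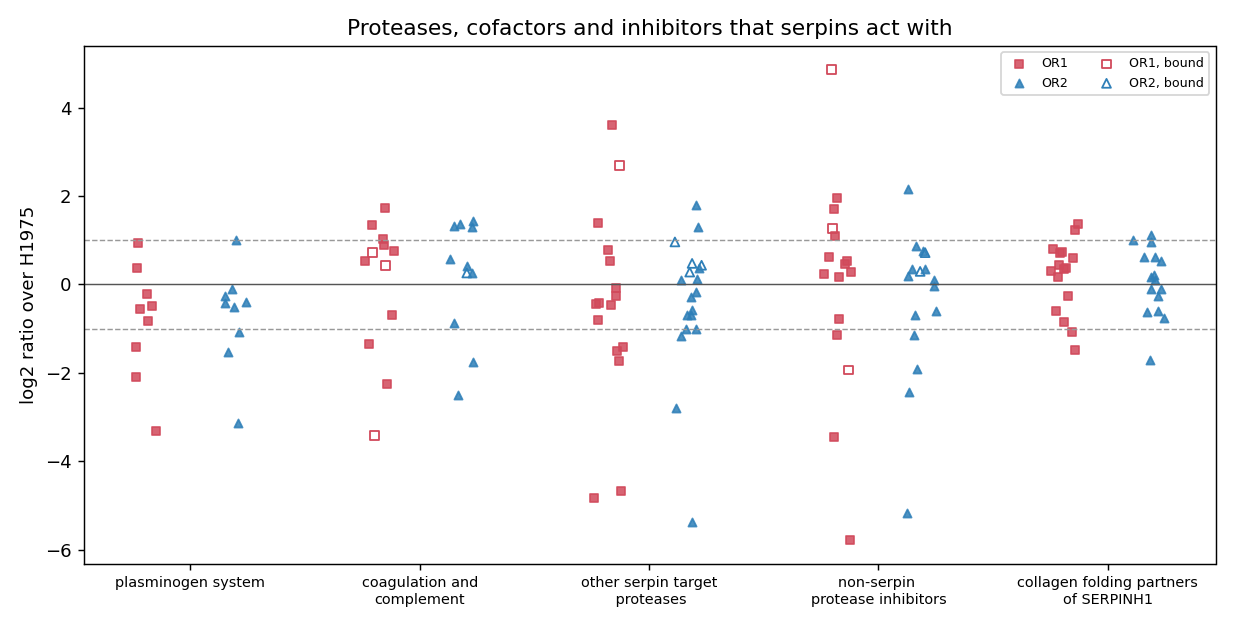
log2 ratio over H1975 of the genes above background in 5 lists of proteins that serpins act with, OR1 as squares and OR2 as triangles, open where the value is a bound, with dashed lines at ratios of 2 and 0.5; horizontal scatter within a column has no meaning. Each list holds genes on either side of 0, and 3 of the plasminogen genes lie below -1 in both lines.

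The family lies largely in 3 clusters, and the plot along them shows how the called members are placed. The cluster on chromosome 14 holds 10 clade A genes within 340 kb (hg19), of which 4 were above background, all with ratios below 1 in both lines. That on chromosome 18 holds 10 clade B genes within 477 kb, of which 5 were above background. There SERPINB5, SERPINB4 and SERPINB3, at 1 end, were lower in at least 1 line, and SERPINB7 and SERPINB8, further along, were not. That on chromosome 6 holds SERPINB1, SERPINB6 and SERPINB9 within 115 kb. There SERPINB9 was higher in both lines and its neighbours on either side were not. Genes within 2 Mb of each cluster had median log2 ratios of -0.26 and -0.53 on chromosome 14 (39 genes), 0.31 and 0.23 on chromosome 18 (9 genes) and 0.25 and 0.19 on chromosome 6 (39 genes), in OR1 and OR2.

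**Figure D4:**
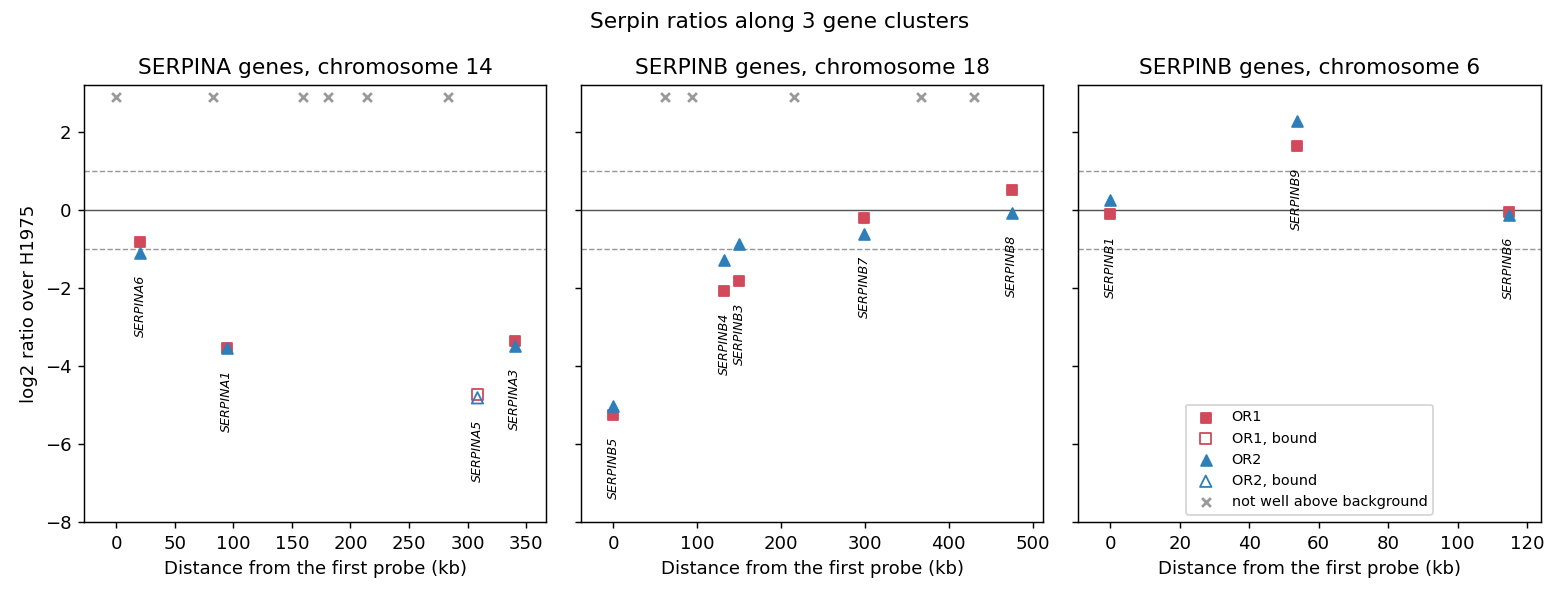
log2 ratio over H1975 of the serpins in 3 clusters against the distance in kb from the cluster's first probe, OR1 as squares and OR2 as triangles, open where the value is a bound, dashed lines at ratios of 2 and 0.5, and crosses at the top for members not well above background in any line. In each cluster, called members lie beside members that were not called or not detected.

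In all, 18 serpins were not well above background in any line. They were SERPINA2, SERPINA4, SERPINA7, SERPINA9, SERPINA10, SERPINA11 and SERPINA12 of clade A, SERPINB2, SERPINB10, SERPINB11, SERPINB12 and SERPINB13 of clade B, and SERPINC1, SERPINE2, SERPINE3, SERPINF2, SERPINI1 and SERPINI2. They include SERPINC1, or antithrombin, and SERPINF2, or alpha-2-antiplasmin, which are made chiefly by the liver. Of 5 hepatocyte markers, ALB, APOB, TTR and FGB were not well above background in any line, and APOA1 measured 21.8, 30.4 and 25.3. SERPINA1, SERPINA3 and SERPINA5 were thus measured in H1975 with those 4 liver markers not well above background.

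None of the 15 serpins above background in OR1 or OR2 was called different between those lines at a ratio of 2. Of all genes, 2.89% were higher in OR1 and 2.48% higher in OR2. Among serpins above background in both lines SERPINB3 came nearest, at a ratio of 1.92. For SERPIND1, dim in OR1, the ratio of OR2 over OR1 was at least 1.31, which does not settle whether it passed 2, and it was called higher in OR2 without a background filter. This count depends on the scaling, since it was 6 higher in OR2 when arrays were scaled on 7 spike-in probes, which lowered all log2 ratios of OR1 over H1975 by 0.58 and raised those of OR2 by 0.06. The 8 calls shared by both lines were also made with spike-in scaling.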

How the data were processed

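For each of the 3 lines the authors hybridized labelled complementary RNA to 1 Agilent array with a single dye. The deposited scanner files hold the processed intensity of each spot, corrected for background by Agilent Feature Extraction and not scaled between arrays, together with flags and an error estimate. The file headers give version 10.7.1.1 of that software and the submitters' notes 9.5.1.1. A deposited table of normalized intensities, whose method is not given in the sources used here, was an alternative.

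Control and outlier spots were left out, the log2 mean stood for probes with several spots, and the 75th percentile over 58200 probes set the scale of each array. The brightest probe stood for each gene. A probe counted as well above background where at least 50% of its kept spots carried the software's flag, and a gene entered a comparison where that held in at least 1 of the 2 lines. A higher call also needed the flag in the higher line. A line without the flag was set to the lowest flagged intensity of its array, or its own if higher, and the ratio is then a bound. Every serpin above background was named with its values, and up to 5 called genes from each list. Members and lists were chosen with earlier results of these data known. Probe positions are on hg19 as deposited. The result for 1 gene that the naming rule takes is not reported here. Of 34 probe accessions, 33 were found in RefSeq with the same symbol. The calls and the limma fit (R 4.3.3, limma 3.58.1, Python 3.11.15, pandas 2.3.3) were tested on simulated data. Alternatives were other scalings, background corrections, filters, probe rules, ratios and limma. All arrays were mapped to a line from the labels.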

Additional observations from a re-analysis of the deposited data

Results flagged for a closer look

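SERPINB1, SERPINB8 and SERPING1 lay on opposite sides of H1975 in the 2 resistant lines, a difference that was not tested. The log2 ratio of OR2 over H1975 minus that of OR1 was 0.37 for SERPINB1, -0.58 for SERPINB8 and 0.39 for SERPING1, and none of the 3 genes passed a ratio of 2 or 0.5 in either line. With spike-in scaling SERPINB8 was below H1975 in OR1 too, at a log2 ratio of -0.08. For SERPING1 both signs turned with normexp background correction, at log2 ratios of 0.01 in OR1 and -0.08 in OR2, and both log2 ratios were 0 with the median over its probes.

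The array also holds noncoding transcripts named after serpin genes, which the report does not use. One of them, lnc-SERPINB6-2, was well above background in every line and above H1975 in both resistant lines, with an intensity of 28.8 in H1975 against 35.2 in OR1 and 35.6 in OR2. It did not pass a ratio of 2 in either line.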

How the results depend on the processing

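Over the alternatives, 346 log2 ratios of the 16 serpins were recomputed. Of these, 304 moved by less than their technical SD, 42 by more, and none of the called ratios changed sign. The 42 include 18 under normexp background correction and 14 under spike-in scaling. The 5 lower calls in both lines were made under every scaling, background correction and probe rule tried, and without a background filter. At a ratio of 4, SERPINB4 was lost and 4 serpins were lower in both lines. Over all genes that count was 422, beside 1417 in the main setting. SERPINA5, SERPINB4 and SERPINB5 have 1 probe each, so the probe rule could not change their calls. A filter on all 3 arrays drops SERPINA5 and SERPINF1. Serpins higher in both lines numbered 5 without a background filter, where SERPINF2 and SERPINI1 were added, and 1, SERPINF1, at a ratio of 4. Over all genes these counts were 2057 and 265, beside 1141 in the main setting. A limma fit over 22418 genes set OR1 and OR2, as 2 samples, against 1 H1975 array. Its p-values are not given, since they rest on the spread between 2 separately derived lines and H1975 had no replicate. The fitted log2 differences were -3.55 for SERPINA1, -3.42 for SERPINA3, -5.58 for SERPINA5, -1.68 for SERPINB4 and -5.15 for SERPINB5. They were 1.96 for SERPINB9, 4.64 for SERPINF1 and 1.59 for SERPINH1. The fit set no bounds, so the values of SERPINA5 and SERPINF1 rest partly on signals not well above background. Without a background filter 6 serpins were higher in OR1, 5 higher in OR2, 3 higher in OR1 than OR2 and 1 higher in OR2 than OR1. Over all genes the same counts were 4558, 3687, 2957 and 2063, beside 2006, 1675, 619 and 531 with the filter. The serpins thus added as higher than in H1975, SERPINA9, SERPINF2 and SERPINI1, were not well above background in any line. At a ratio of 4, 1 serpin was higher in OR1, beside 464 of all genes. Serpins higher in OR2 than OR1, 0 in the report, numbered 1 with median scaling (SERPINB3), 2 without scaling (SERPINB3 and SERPINB4), 6 with spike-in scaling and 3 at a ratio of 1.5. Over all genes these counts were 692, 1073, 3710 and 1869 in the same order, beside 531 in the main setting. SERPINA6 was lower in both lines with spike-in scaling and without scaling, and in neither with normexp, where SERPINB9 lost its call in OR1. The cause of these shifts was not tested. No paired analysis was possible because each line had 1 array. SERPIND1 was called lower in OR1 and higher in OR2 than OR1 with spike-in scaling and without a background filter. SERPING1 and SERPIND1 lay near the background limit, where the signal leaves ratios imprecise or bounded on 1 side.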
